A study of Mus musculus with 3 samples.

Results

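Cycling thymic epithelial cells (TECs) were described in cultures of mouse fetal thymus analysed by single-cell RNA sequencing (scRNAseq). The cells were chosen by their own RNA counts. A barcode had to hold at least 5 unique molecular identifiers (UMIs) of Mki67 and Top2a together, which mark proliferating cells, and at least 2 UMIs of Epcam, the epithelial adhesion molecule. It also had to hold no UMI of Cd3e, Ptprc or Rag1, which mark T cells, leukocytes and developing lymphocytes. In all, 118 of 9349 cells assigned to a culture type met these limits. They were compared with 1724 non-cycling TECs, which met the same limits but held no UMI of Mki67 or Top2a. Because the selection used these RNA counts, every difference between cycling and non-cycling cells is a description with no test.

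The cells came from 2 pools of wild-type, untreated cultures on culture day 13, and C57BL/6J was the mouse strain named in the methods. In organoid reaggregate fetal thymic organ cultures (ORFTOCs), TECs of E16.5 thymus that had been grown as organoids with the growth factor FGF7 were reaggregated with mouse embryonic fibroblasts and with E13.5 thymus cells depleted of EpCAM. In fetal thymic organ cultures (FTOCs), intact E13.5 lobes were kept in the same medium. Both the organoid phase and the culture medium thus contained FGF7 in ORFTOCs, and the medium did in FTOCs. Cells of 2 cultures made up a pool, which was labelled with a barcoded antibody (hashtag), and both pools shared 1 droplet lane. ORFTOC supplied 51 of the cycling TECs and FTOC 67. Each pool was therefore 1 sample, no test between pools was possible, and the 95% intervals given (exact Poisson for levels, Clopper-Pearson for shares) hold only the error of counting.

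TECs provide the environment in which T cells develop. Cortical TECs (cTECs) attract progenitors and present the peptides that select thymocytes, and medullary TECs (mTECs) display tissue-restricted antigens, some of them under the control of Aire. A dividing cell copies its DNA in S phase with proteins that license origins, supply deoxynucleotides and move the fork, and then condenses and separates its chromosomes in G2 and mitosis. Proliferation in the fetal thymic epithelium depends on FGF signalling through Fgfr2, and post-mitotic mTEC fates follow from dividing precursors.

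Cycling TECs were deeply covered. Their UMI totals per cell had a median of 22607 in ORFTOC (5760 to 36432) and 18874 in FTOC (3158 to 50932), against 12829 and 11471 in the non-cycling TECs. Summed UMIs were 1117355 and 1330731 for cycling and 13444814 and 8552163 for non-cycling TECs. Levels are therefore given as CPM, the UMIs of a gene scaled to a common total of all UMIs of the summed cells, and shares of cells with a UMI after each cell had been thinned to 5000 UMIs. Shallower cells were left out of the shares, namely 3 FTOC cycling TECs, 68 ORFTOC and 50 FTOC non-cycling TECs, and 12 and 22 cycling thymocytes. In the whole lane 10245 barcodes had at least 600 genes and 0.4 to 10% mitochondrial UMIs, and 896 of these carried both hashtags. Sex differed between the pools. At full depth Xist was found in 98.5% of cycling TECs of FTOC and 35.3% of ORFTOC. The 4 Y-linked genes listed had UMIs in ORFTOC cycling TECs only. Sex and culture type cannot be told apart in any comparison of the pools below.

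The values that defined the cells are given once, as a description. Mki67 had a median of 7 UMIs in each pool (0 to 36 over both), Top2a 11 (0 to 42), and Epcam 23 in ORFTOC and 22 in FTOC. Just inside the limit, 8 ORFTOC and 3 FTOC cells held exactly 5 UMIs of Mki67 and Top2a. Just outside it, 2 cells of each pool held 4. A further 143 ORFTOC and 107 FTOC TECs held 1 to 4 UMIs and were left out of both groups. At the Epcam limit, 1 FTOC cell held exactly 2 UMIs and 1 ORFTOC cell a single UMI, and 19 ORFTOC and 4 FTOC cells that met the other limits held none.

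Genes outside the rule bore on the label. Krt8, a simple epithelial keratin, had UMIs in all 118 cells, with 1545 (1473 to 1619) CPM in ORFTOC and 1272 (1212 to 1334) in FTOC against 11.5 and 4.07 in cycling thymocytes. Those were the 485 ORFTOC and 344 FTOC cells with at least 5 UMIs of Mki67 and Top2a, at least 2 of Ptprc and none of Epcam. The limits do not separate thymocytes from other dividing leukocytes, and Lyz2, a macrophage gene, was at 667 and 373 CPM in them. Foxn1, the master regulator of TEC identity, was at 62.6 (48.8 to 79.2) and 54.9 (43.0 to 69.0) CPM, against 0.794 and 0.452 in those thymocytes. Pax1, a pharyngeal pouch factor, was at 139.6 and 174 CPM. The claudins Cldn3 and Cldn4, which were also on the epithelial marker list, were low in cycling TECs and are described with the mTEC genes.

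Markers of other cells were mostly near 0. The 18 thymocyte genes that the rule had not used summed to 109 CPM in ORFTOC and 155 in FTOC cycling TECs, against 9532 and 10460 in cycling thymocytes. Cd8a, Ptcra, Dntt and Cd2 had no UMI in ORFTOC cycling TECs, and Cd3g, Cd8b1, Cd4, Ptcra, Rag2, Ptprcap and Cd2 had none in FTOC. Rac2, a small GTPase of blood cells, supplied 108 of the FTOC UMIs. No cycling TEC had a T cell receptor contig, against 80.2 and 73.0% of cycling thymocytes. For a count of 0 the limit given here and below is 3 counts of the total, a limit on cells with a contig or UMI and not on cells that express a gene. For the contigs it was 5.88% in ORFTOC and 4.48% in FTOC. Single cells carried much of the rest. The 8 mesenchymal genes summed to 55.5 CPM in ORFTOC and 210.4 in FTOC, where 1 cell held 85.0% of their UMIs and Col3a1 reached 90.2 CPM. The 8 macrophage genes summed to 100.2 and 16.5 CPM, the 5 endothelial genes to 6.26 and 6.01, and the 5 red cell genes to 0 and 0.751. In all, 16 ORFTOC and 14 FTOC cycling TECs held at least 3 UMIs of the mesenchymal or thymocyte lists, and results that rest on them are named below. How far doublets or free RNA account for these UMIs was not tested.

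The condition on immune genes removed more cells from ORFTOC than from FTOC. Of the 110 ORFTOC cells that met all other limits, 59 held a UMI of Cd3e, Ptprc or Rag1, or 53.6% (43.9 to 63.2). In FTOC 22 of 89 did, or 24.7% (16.2 to 35.0). The removed cells expressed the other thymocyte genes at 3840 and 3486 CPM, and 39 and 12 of them had a T cell receptor contig. Among barcodes with both hashtags the share was 80% (32 of 40 cells). The share of cycling cells in each pool is therefore given with and without this condition.

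Cycling TECs made up 4.20% of ORFTOC TECs (51 of 1214, 3.14 to 5.49) and 7.63% of FTOC TECs (67 of 878, 5.96 to 9.59). The order was kept with every TEC thinned to 5000 UMIs before the same limits were applied, at 2.03% (1.29 to 3.04) and 4.14% (2.88 to 5.73). It was also kept in each of the 12 alternative selections run. Without the condition on immune genes the shares lay closest, at 6.84% and 8.43%. With every cell that held any other thymocyte UMI or a T cell receptor contig also left out they were 2.71% and 6.90%. Counted the other way, 43.2% of the cycling TECs were ORFTOC cells (34.1 to 52.7), against 58.0% of all TECs (55.9 to 60.2) and 56.0% of all assigned cells (55.0 to 57.0). Without the condition on immune genes the ORFTOC share was 55.3%.

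**Figure D1:**
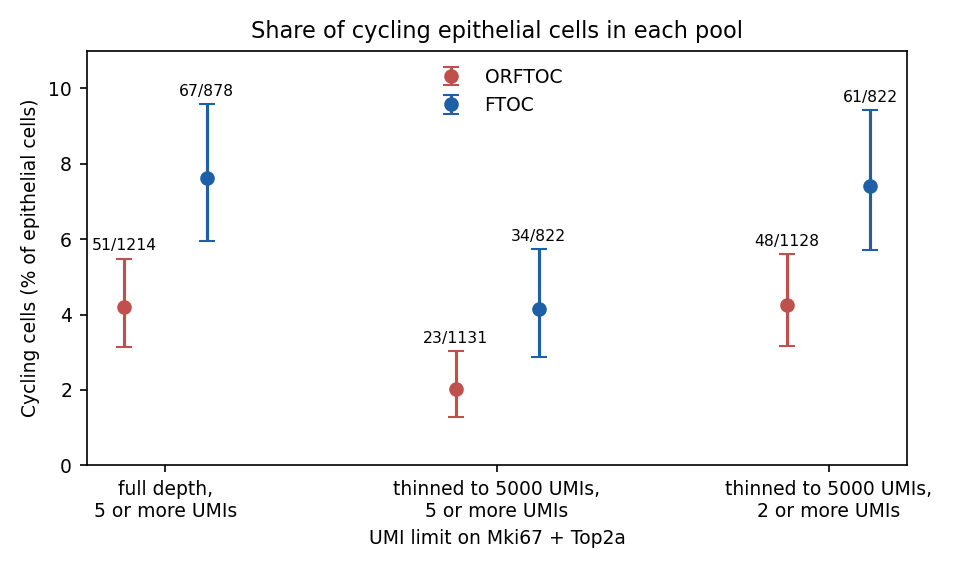
Cycling cells as a percentage of epithelial cells (y axis) in ORFTOC (red) and FTOC (blue) under 3 settings of depth and UMI limit on Mki67 and Top2a (x axis). Points are shares, bars are 95% Clopper-Pearson intervals and the numbers give cells; the ORFTOC share was the lower in each setting, 4.20% against 7.63% at full depth.

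The same order was seen in RNA summed over all TECs. The sums include the cycling TECs, so they are not separate from the shares above. A list of 52 G2 and mitosis genes, without Mki67 and Top2a, summed to 1582 CPM (1563 to 1601) over all ORFTOC TECs and 2329 (2301 to 2357) over all FTOC TECs. A list of 43 S phase genes summed to 782 (769 to 796) and 953 (936 to 972). Cycling TECs held 37.4% of the G2 and mitosis UMIs in ORFTOC and 56.7% in FTOC, though only 6.71% and 11.7% of all UMIs. The remaining UMIs of these lists came from TECs outside the limits. Within the classes the order was not always kept. In non-cycling TECs the G2 and mitosis list summed to 1004 CPM in ORFTOC and 979 in FTOC, and the S phase list to 513 and 569. In cycling TECs the G2 and mitosis list summed to 8809 and 11309 CPM, and the S phase list to 3959 and 3111.

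Genes of DNA synthesis and mitosis were higher in cycling TECs. Over the 6694 genes with a mean of at least 20 CPM, 384 (5.74%) were at least 2-fold higher in cycling TECs of both pools and 219 (3.27%) at least 2-fold lower in both. Such genes are called higher or lower below. These lists contain genes that move with Mki67 and Top2a, so nothing is read from the counts beyond their size. The mean is taken over both classes and both pools. A gene under 20 CPM in cycling or in non-cycling TECs of both pools passes only through the other class. Its direction then follows from the limit, here and below. Of 32 S phase genes over the level limit, 30 were higher, with a median log2 ratio of 3.30 in ORFTOC and 2.52 in FTOC. Of 48 G2 and mitosis genes, 47 were higher, with medians of 5.73 and 6.01. Over all genes tested the median was -0.04 in both pools. Ctcf was the G2 and mitosis gene that was not called.

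Origin licensing and the replicative helicase were represented by 14 genes, of which 12 were higher. Mcm6, a subunit of the helicase, was at 251 (223 to 283) CPM in ORFTOC and 172 (151 to 196) in FTOC cycling TECs, against 25.3 and 30.9 in non-cycling TECs. Mcm7 and Mcm5 are further subunits. Mcm7 was at 198 and 104 against 28.3 and 31.8, and Mcm5 at 132 and 69.9 against 5.65 and 9.35. These subunits were higher in cycling TECs of either pool. All 9 genes of deoxynucleotide synthesis over the limit were higher. Rrm2, the S phase subunit of ribonucleotide reductase, stood at 192 (167 to 219) and 192 (169 to 217) CPM against 2.60 and 3.39. Dut, which removes dUTP, was at 419 and 349 against 46.1 and 50.4. Tk1, thymidine kinase, was at 226 and 228 against 13.9 and 11.8. Of 19 polymerase and fork genes 17 were higher, among them Pcna, the sliding clamp, at 234 and 148 against 42.5 and 43.4. Rfc2, of the complex that loads this clamp, was at 145 and 116 against 44.3 and 40.8.

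Genes of chromosome structure were split. Of 14 genes 9 were higher, including the condensin subunits Smc4, at 282 and 325 CPM against 42.7 and 43.0, and Smc2, at 243 and 296 CPM against 15.7 and 16.1. The cohesin subunits Smc1a and Stag2 were not called. Smc1a was at 211 and 195 against 97.3 and 97.8, and Stag2 at 43.0 and 50.3 against 42.7 and 46.1. All 20 kinetochore and checkpoint genes over the limit and all 22 spindle and cytokinesis genes were higher. In non-cycling TECs the 22 spindle and cytokinesis genes summed to 66.9 and 67.8 CPM. The 21 kinetochore and checkpoint genes of the list summed to 134 and 146 CPM there. Most genes of these 2 lists thus passed the limit only through cycling TECs, and their direction follows from it. Cenpf, a kinetochore protein, was 175-fold higher in ORFTOC and 148-fold in FTOC. Bub3, of the spindle checkpoint, was at 238 and 263 CPM against 90.9 and 87.3. Birc5, of the chromosomal passenger complex, was at 302 and 438 against 2.01 and 1.64. Plk1, a mitotic kinase, was at 141 (119 to 164) and 210.4 (186 to 237) CPM against 0.893 and 0.585. Ube2c, which with the anaphase-promoting complex marks proteins for destruction, was at 479 (439 to 521) and 706 (661 to 752) against 1.93 and 4.56.

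**Figure D2:**
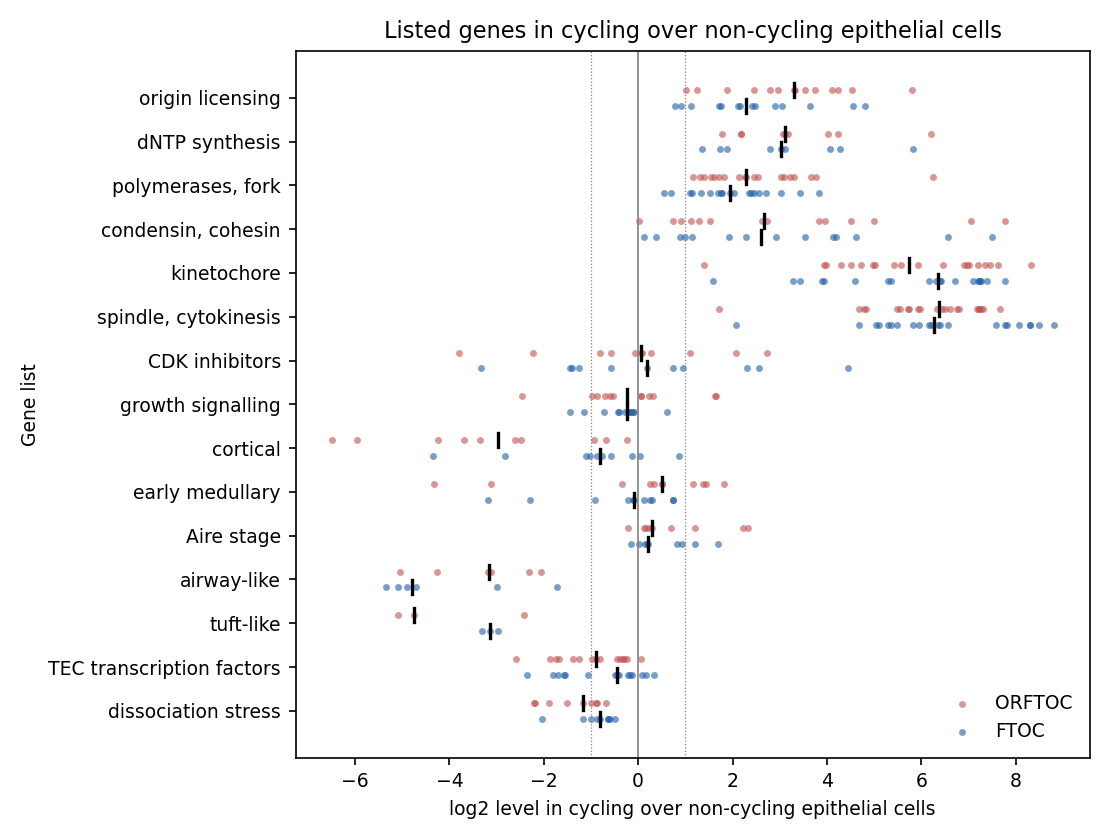
Log2 ratio of the level in cycling over non-cycling epithelial cells (x axis) for the genes of 15 lists (y axis) with a mean of at least 20 CPM, in ORFTOC (red) and FTOC (blue). Each point is a gene, black ticks are medians and dotted lines mark 2-fold; by their medians kinetochore and spindle genes lie farthest to the right and airway-like and tuft-like genes farthest to the left.

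Promoter sequences are shown for 4 of these genes, since cell cycle genes that move together are known to share promoter elements. From each of the S phase and the G2 and mitosis lists the 2 genes with the highest level in cycling TECs were taken among those that met a rule. They had a single promoter in the RefSeq table (GRCm38.p6) and were at least 16-fold higher in both pools. Genes on 1 chromosome were left out, as were promoters whose last bases did not match the opening part of a transcript. The rule was made after the values were seen. The 250 bases before the start are printed 5′ to 3′ on the gene's strand. Capitals mark exact matches, on either strand, to TTTGAA (the cell cycle homology region), CCAAT (the NF-Y box) or TTTCCCGC (an E2F site).
Hmgb2, chr8:57511593-57511842, plus strand: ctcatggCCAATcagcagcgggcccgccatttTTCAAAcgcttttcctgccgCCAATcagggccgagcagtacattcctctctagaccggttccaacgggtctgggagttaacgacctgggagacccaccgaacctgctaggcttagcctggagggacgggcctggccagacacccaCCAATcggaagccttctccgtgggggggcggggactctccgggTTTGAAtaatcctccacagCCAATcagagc
Ube2c, chr2:164769679-164769928, plus strand: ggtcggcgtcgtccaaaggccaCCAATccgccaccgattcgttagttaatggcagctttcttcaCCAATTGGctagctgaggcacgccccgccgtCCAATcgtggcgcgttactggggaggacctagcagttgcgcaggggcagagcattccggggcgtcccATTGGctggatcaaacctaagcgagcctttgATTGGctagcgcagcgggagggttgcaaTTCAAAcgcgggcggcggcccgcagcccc
Tyms, chr5:30073626-30073875, minus strand: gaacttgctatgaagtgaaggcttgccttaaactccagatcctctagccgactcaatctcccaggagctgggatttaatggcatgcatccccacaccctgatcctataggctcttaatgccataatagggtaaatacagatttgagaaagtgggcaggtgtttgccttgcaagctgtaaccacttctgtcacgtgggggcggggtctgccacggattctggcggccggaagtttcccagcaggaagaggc
Rrm2, chr12:24708004-24708253, plus strand: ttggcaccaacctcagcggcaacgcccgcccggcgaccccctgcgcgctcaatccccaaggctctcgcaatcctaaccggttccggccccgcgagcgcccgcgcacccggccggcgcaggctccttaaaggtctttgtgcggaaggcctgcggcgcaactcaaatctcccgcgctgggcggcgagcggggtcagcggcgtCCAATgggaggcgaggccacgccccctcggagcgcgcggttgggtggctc
Hmgb2, a chromatin protein, held TTTGAA on its own strand beginning 30 bases before the start, and a further match on the opposite strand. Ube2c held it on the opposite strand, 29 bases before the start, and 6 CCAAT matches, 2 of which overlap. Rrm2 held 1 CCAAT match, and Tyms, which makes thymidylate, held none of the motifs. Among 50 promoters matched to 45 of the 52 G2 and mitosis genes, 38.0% held TTTGAA and 74.0% held CCAAT. In all 32851 promoters of the table these shares were 16% and 33.8%. In 34 promoters of 31 S phase genes they were 17.6% and 67.6%. TTTCCCGC was in 8.82% of S phase, 2% of G2 and mitosis and 0.895% of all promoters. A match is a run of letters in this window and was not tested for binding.

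The balance between S phase and mitotic genes differed between the pools. Each cell was thinned to 5000 UMIs, which left out 3 FTOC cells, and its UMIs of the 43 S phase genes were counted as a percentage of its S phase and G2 and mitosis UMIs. In ORFTOC the percentages ran from 1.52 to 73.1% with a median of 39.7% (quartiles 15.2 and 56.0%). In FTOC they ran from 2.22 to 71.4% with a median of 18.1% (7.57 and 39.7%). Under 25% lay 21 of 51 ORFTOC cells and 36 of 64 FTOC cells, with 11 and 8 cells within 5 points of 25 or 75%. The median cell held 22 S phase and 37 G2 and mitosis UMIs in ORFTOC, and 14.5 and 53 in FTOC. In cycling thymocytes the medians of the 2 pools were closer, 25.5% in ORFTOC and 23.0% in FTOC. The cycling TECs were chosen before thinning, by a raw UMI limit on Mki67 and Top2a. Their median depth was 22607 UMIs in ORFTOC and 18874 in FTOC. How far this choice shaped the balance was not tested.

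**Figure D3:**
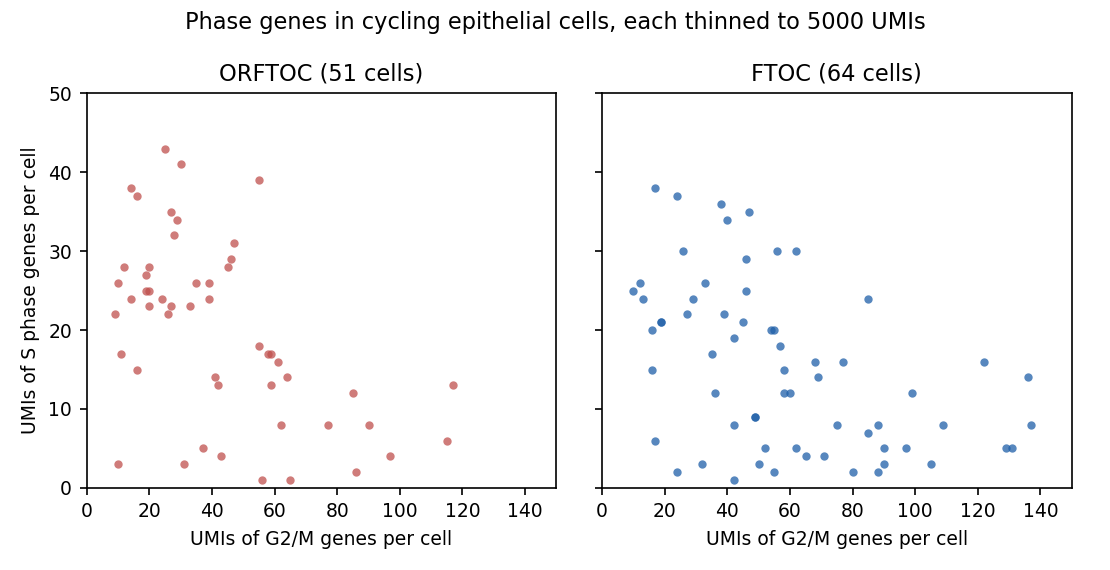
UMIs of 43 S phase genes (y axis) against UMIs of 52 G2 and mitosis genes (x axis) in single cycling epithelial cells, each thinned to 5000 UMIs, in ORFTOC (51 cells) and FTOC (64 cells). Each point is a cell; FTOC has more cells at the lower right, with a median of 53 G2 and mitosis UMIs against 37 in ORFTOC.

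In the main selection the shift ran through most genes of the lists. Of 38 S phase genes with a mean of at least 20 CPM in cycling TECs, 33 had the higher level in ORFTOC, with a median log2 ratio of ORFTOC over FTOC of 0.35. Of 51 G2 and mitosis genes 47 had the lower level in ORFTOC, with a median of -0.34. Over all 6457 genes tested, 50.1% had the higher level in ORFTOC, and 1.84% were at least 2-fold higher there and 1.39% at least 2-fold lower. Few of these differences reached 2-fold: Ung, a DNA repair enzyme of S phase, was higher in ORFTOC with a log2 ratio of 1.47 (0.65 to 2.36), and Nek2, a centrosome kinase, was lower with -1.08 (-1.81 to -0.39). Cenpf was at 274 CPM in ORFTOC and 415 in FTOC. Over 16 alternatives the S phase median stayed between 0.09 and 0.43 and the G2 and mitosis median between -0.40 and -0.16. The gene counts weakened in some. With cells chosen after thinning to 5000 UMIs, 23 S phase and 17 G2 and mitosis genes had the higher level in ORFTOC. Without the condition on immune genes 26 and 4 did. Without the 30 cells with at least 3 mesenchymal or thymocyte UMIs 27 and 14 did.

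Cyclins and their kinases included genes that differed little. Of 13 genes over the level limit 9 were higher in cycling TECs. Ccna2, which acts in S phase and G2, was at 197 (172 to 225) CPM in ORFTOC and 237 (212 to 265) in FTOC against 0.818 and 0.702. Ccnb1, the mitotic cyclin, was at 141 and 160.1 against 0.818 and 0.351, and Cdk1, its kinase, at 325 (292 to 360.1) and 425 (390.3 to 461) against 2.23 and 5.26. The D cyclins, which carry growth signals to the cycle, were expressed in non-cycling TECs as well. Ccnd2 was at 535 (493 to 579.9) and 317 (288 to 349) CPM against 144 and 212, a log2 ratio of 1.89 and 0.58. Its partner kinase Cdk4 was at 639.9 and 578 against 348 and 380.1.

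Cycling TECs and cycling thymocytes differed in the D cyclin they expressed most. In TECs Ccnd2 had 535 and 317 CPM, Ccnd1 87.7 (71.2 to 107) and 58.6 (46.3 to 73.2), and Ccnd3 48.3 (36.3 to 63.1) and 78.9 (64.5 to 95.5). In thymocytes Ccnd3 was the highest, at 848 (827 to 869) and 805 (779 to 832) CPM, Ccnd2 at 80.4 and 99.2, and Ccnd1 at 4.24 and 3.16. After thinning to 5000 UMIs a Ccnd2 UMI was found in 64.7% of ORFTOC and 67.2% of FTOC cycling TECs, 27.5 and 29.5% of cycling thymocytes, and 30.0 and 42.8% of non-cycling TECs. At full depth the shares in cycling TECs were 84.3 and 86.6%. The mitotic machinery was closer between the cell types, for example Cdk1 at 309 and 325 CPM in thymocytes.

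Inhibitors of cyclin-dependent kinases went in both directions. Of 11 genes over the limit 3 were higher and 2 lower in cycling TECs. Cdkn1c, the inhibitor p57, was lower: 4.47 (1.45 to 10.4) CPM in ORFTOC and 18.0 (11.6 to 26.8) in FTOC, against 62.3 and 181. Its share of cells did not follow: after thinning 1.96% of ORFTOC and 10.9% of FTOC cycling TECs held a UMI, against 4.20 and 8.41% of non-cycling TECs and 1.27 and 5.90% of cycling thymocytes. At full depth the shares were 9.80 and 17.9% against 7.25 and 12.5%. In non-cycling TECs 1 cell held 19.5% of the UMIs in ORFTOC and 1 held 25.5% in FTOC. Btg2, an antiproliferative gene, was also lower, at 128 and 187 against 598 and 513. Its relative Btg1 was at 105 and 93.2 against 183 and 222. Cdkn2c and Cdkn2d, which inhibit Cdk4 and Cdk6, were higher. Cdkn2c was at 50.1 (37.9 to 65.1) and 74.4 (60.5 to 90.6) CPM against 7.51 and 3.39, and Cdkn2d at 55.5 and 89.4 against 13.2 and 15.1. Cdkn2a, which was 81.4 and 47.3 against 37.9 and 9.59 CPM, was the remaining higher gene. Cdkn1c passed the level limit only through non-cycling TECs, and Cdkn2c and Cdkn2d only through cycling TECs. The direction of these 3 genes follows from the limit. Cdkn1a, the p53 target p21, had 124 CPM in ORFTOC, of which 1 cell held 58.7%, and 32.3 in FTOC. Its difference between the pools turned from 1.93 to -0.26 on the log2 scale without the 30 cells that held at least 3 mesenchymal or thymocyte UMIs.

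Regulators of the cycle genes were mostly at low levels. Of the 14 E2F, MYB and FOXM1 genes only Tfdp1, E2f4 and Lin37, or 3, passed the level limit. Tfdp1, the E2F partner, was called higher, at 137 and 147 CPM against 36.9 and 44.3. Foxm1, which drives mitotic genes, had 36.7 (26.3 to 49.8) and 37.6 (27.9 to 49.5) CPM against 2.01 and 1.29. E2f1 had 39.4 and 21.8 CPM against 1.04 and 2.46.

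No gene of growth factor signalling was called higher or lower among 12 over the limit, with medians of -0.23 and -0.24. Fgfr2, the receptor for FGF7, was at 90.4 (73.6 to 109.8) CPM in ORFTOC and 129 (110.0 to 149) in FTOC cycling TECs against 77.1 and 149 in non-cycling TECs. It was not detected in cycling thymocytes of either pool. Trp63, which maintains epithelial progenitors, was at 148 and 178 against 141 and 199.7. Myc was at 58.2 and 42.8 against 46.5 and 57.4. The FGF feedback genes Spry1 and Dusp6 were at 30.4 and 37.6 CPM in ORFTOC cycling TECs, against 55.4 and 73.9, and at 50.3 and 44.3 in FTOC, against 112 and 120.0.

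Genes of cTECs were low in cycling TECs, most of all in ORFTOC. Of 10 genes over the limit 4 were lower and none higher, with median log2 ratios of -2.98 in ORFTOC and -0.82 in FTOC. Psmb11, the thymus-specific proteasome subunit of cTECs, had no UMI in any of the 51 ORFTOC cycling TECs, which allows up to 5.88% of cells with a UMI. In non-cycling TECs it was at 242 CPM. In FTOC it was at 5.26 (2.11 to 10.8) CPM against 36.9. Prss16, a protease of cTECs, was at 43.9 (32.4 to 58.0) and 117 (99.6 to 137) CPM against 827 and 253. In FTOC its log2 ratio of -1.11 was under 2-fold in 4 alternatives: -0.96 with at least 10 UMIs of Mki67 and Top2a, -0.77 without the condition on immune genes, -0.80 as a mean of per-cell CPM and -0.047 after thinning to 5000 UMIs. Ccl25, a chemokine for thymus-seeding progenitors, was at 11.6 (6.19 to 19.9) and 6.76 (3.09 to 12.8) against 727 and 138, and the level in cycling thymocytes, 11.9 and 10.8, was as high, so that it cannot be read as expression in cycling TECs. Ctsl, cathepsin L, was at 678 and 1289.5 against 6889 and 2356. Psmb11 and Ccl25 passed the level limit only through non-cycling TECs, so their direction follows from the limit and bears on the medians. By the mean of cycling TECs alone, 7 genes of the list reached the limit.

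Prss16 RNA was nonetheless spread over many cycling cells. After thinning, 11 of 51 ORFTOC (21.6%, 11.3 to 35.3) and 22 of 64 FTOC cycling TECs (34.4%, 22.9 to 47.3) held a UMI, against 29.8% and 27.2% of non-cycling TECs and 0.846% and 1.24% of cycling thymocytes. Their levels differed, however: at full depth only 5 ORFTOC and 21 FTOC cells held 3 or more UMIs, and the highest cell held 5 and 27. Cxcl12, a stromal chemokine, was at 34.0 (24.1 to 46.7) CPM in ORFTOC and 262 (235 to 290.5) in FTOC cycling TECs. Foxn1 did not follow the other cTEC genes and was at 62.6 and 54.9 CPM against 74.1 and 60.0.

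**Figure D4:**
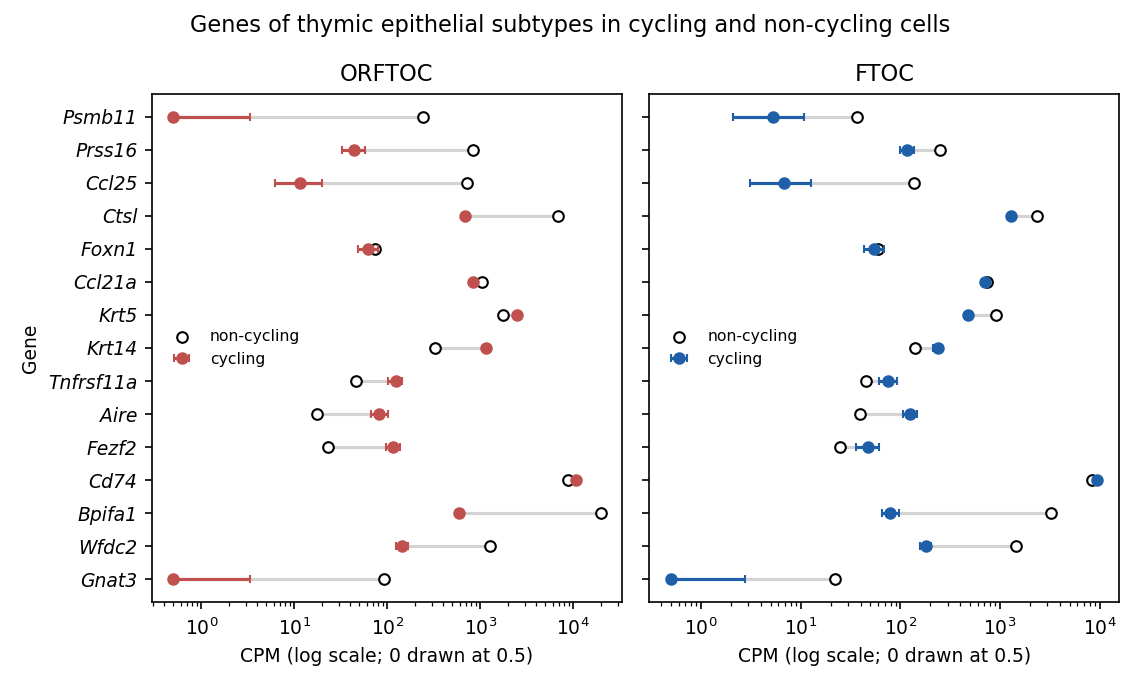
Levels in CPM (x axis, log scale, 0 drawn at 0.5) of 15 genes of TEC subtypes (y axis) in non-cycling (open circles) and cycling cells (filled, with 95% Poisson intervals) of ORFTOC (left) and FTOC (right). The cTEC genes Psmb11 and Ccl25 and the airway-like gene Bpifa1 lie lower in cycling cells, Aire, Fezf2 and Krt14 lie higher, and Foxn1 and Cd74 hardly differ.

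Early mTEC genes were expressed in cycling TECs of both pools. Of 11 genes 2 were lower, the claudins, and none was called higher. Ccl21a, the chemokine of early mTECs, was at 826 (774 to 881) and 703 (658 to 749) CPM against 1053 and 744. More than 1 entry of the files has this symbol, and they were summed, and closely related gene copies may share reads. Tnfrsf11a, the receptor RANK for the signal that matures mTECs, was at 123 (103 to 145) and 75.9 (61.8 to 92.2) CPM against 45.5 and 45.3. A UMI of it was found after thinning in 39.2% (25.8 to 53.9) and 20.3% (11.3 to 32.2) of cycling TECs, 14.9 and 12.2% of non-cycling TECs, and 1.27 and 0.621% of cycling thymocytes. Cldn4 was at 33.1 and 12.8 CPM against 286 and 116, and Cldn3 at 4.47 and 19.5 against 90.4 and 95.5.

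Basal keratins differed between the pools. Krt14 was at 1138 (1077 to 1203) CPM in ORFTOC cycling TECs and 237 (211 to 264) in FTOC, against 324 and 141 in non-cycling TECs. Krt5, its partner, was at 2473 (2381 to 2567) and 482 (445 to 520.5) against 1751 and 904, a level higher in cycling TECs of ORFTOC and lower in those of FTOC. The share of cells with a Krt5 UMI after thinning was not lower in FTOC, at 42.2% (29.9 to 55.2) of cycling against 35.6% (32.0 to 39.4) of non-cycling TECs, and was 76.5% against 66.3% in ORFTOC. After thinning, Krt14 had a UMI in 80.4% of ORFTOC cycling TECs (66.9 to 90.2) and 37.5% of FTOC (25.7 to 50.5), against 27.4 and 22.6% of non-cycling TECs and 0.634% of cycling thymocytes in ORFTOC. In FTOC 0 of 322 thymocytes held one, which allows up to 0.932% of cells with a UMI. Krt17 was at 1785 and 1134 CPM against 796 and 927. The simple keratin Krt18 was at 1749 and 1548 against 4878 and 2639. Krt7 and Krt19 were called lower.

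Aire, which drives tissue-restricted antigens in mTECs, was found in a minority of cycling TECs and at high levels there. It was at 82.3 (66.4 to 101) CPM in ORFTOC and 125 (107 to 146) in FTOC against 17.6 and 39.1 in non-cycling TECs. A UMI was present after thinning in 8 of 51 ORFTOC (15.7%, 7.02 to 28.6) and 10 of 64 FTOC cells (15.6%, 7.76 to 26.9), against 2.42% (1.54 to 3.60) and 4.13% (2.74 to 5.95) of non-cycling TECs. Cycling thymocytes had none in 473 and 322 cells, which allows up to 0.634 and 0.932% of cells with a UMI. At full depth 9 and 10 cycling TECs held 3 or more Aire UMIs, and the highest held 24 and 29. In FTOC the ratio rested on few cells, and without the 14 cycling TECs that held at least 3 mesenchymal or thymocyte UMIs it was -0.28 on the log2 scale in place of 1.68. It was -0.088 when the cells were chosen after thinning to 5000 UMIs. In ORFTOC it was 0.77 without the 16 such cells, in place of 2.23.

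Fezf2, the other regulator of such antigens, was at 115 (96.4 to 137) CPM in ORFTOC and 47.3 (36.4 to 60.6) in FTOC against 22.8 and 24.9, and it too turned in FTOC without those cells, to -1.13. In ORFTOC it was 0.63 without them. At full depth 12 of the 17 ORFTOC cells with an Aire UMI also held Fezf2, and 11 held Ccl21a. In FTOC 6 of 12 held Fezf2 and 3 held Ccl21a. Among all cycling TECs, 14 of 51 ORFTOC and 8 of 67 FTOC cells held Fezf2, and 38 and 37 held Ccl21a. Ccl21a was thus not more frequent among cells with an Aire UMI. MHC class II genes were high and near equal in the 4 groups, with Cd74, the invariant chain, at 10594 and 9487 CPM against 8675 and 8374. Of the 9 Aire-stage genes over the limit only Aire was called higher.

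Genes of airway-like and tuft-like TECs were low or not detected in cycling TECs. Of 10 airway-like genes 6 and of 8 tuft-like genes 3 passed the level limit and were called lower. Muc5b, Agr2 and the 3 tuft-like genes passed only through their level in non-cycling TECs, so their direction follows from the limit. Bpifa1, a secreted airway protein, was at 597 (552 to 644) and 79.7 (65.2 to 96.3) CPM against 19619.9 and 3247. A single cell held 98.7% of its UMIs in ORFTOC and another 87.7% in FTOC. After thinning, 5.88% and 6.25% of cycling TECs held a Bpifa1 UMI, no more than the 8.25% and 7.76% of cycling thymocytes, whose median depths were 14407 and 11359 UMIs, so the shares are read as background. Lcn2, which binds iron carriers of bacteria, was at 701 and 195 CPM against 2937 and 638, and 1 cell held 67.0% and 62.2% of its UMIs in cycling TECs. Wfdc2, a secretory protein, was at 144 and 180.4 against 1257 and 1443. Its share of cells differed less. After thinning 31.4% of ORFTOC and 29.7% of FTOC cycling TECs held a UMI, against 45.2 and 35.0% of non-cycling TECs. In cycling thymocytes the shares were 1.69 and 1.86%. Dclk1, a tuft cell kinase, was at 14.3 and 4.51 CPM against 76.7 and 35.3. Gnat3, a taste transduction subunit of tuft cells, had no UMI in any cycling TEC, against 92.1 and 22.2 CPM. Trf, transferrin, of the genes that lead the Aqp3-high TECs, was at 3.58 and 3.76 against 50.7 and 202, whereas Aqp3 itself was at 158 and 297 against 139.6 and 475.

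Among the 15 transcription factors over the limit 5 were lower and none higher. Pax9, a pharyngeal pouch factor, was at 138 and 188 CPM against 187 and 179. Lower were Ehf, Elf3, Klf5, Id1 and Id3. Elf3, an epithelial differentiation factor, was at 20.6 and 28.6 against 125 and 146, and Id1, an inhibitor of basic helix-loop-helix factors, at 66.2 and 61.6 against 222 and 180.1. The early genes that respond to tissue dissociation included 2 of 9 that were lower, Jun and Atf3. Junb was at 892 and 1053 CPM against 1786 and 1601, and Fos at 658 and 1014 against 1868 and 1777. Jun was at 337 and 543 against 1539 and 1224, and Atf3 at 38.5 and 48.8 against 178 and 199. The median over the 9 was -1.18 in ORFTOC and -0.81 in FTOC, so these genes moved with the class, and their part in the other differences was not tested.

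Utf1, a chromatin factor known from pluripotent cells, was called higher in cycling TECs, at 163 (140.1 to 188) and 376 (344 to 410.2) CPM against 41.2 and 94.5. It was found after thinning in 27.5% and 25% of cycling TECs, 8.30% and 15.0% of non-cycling TECs and 0.423% and 0.311% of cycling thymocytes. The direction did not hold throughout: it was -0.017 in FTOC on the log2 scale without the cells with at least 3 mesenchymal or thymocyte UMIs. In ORFTOC it was -0.40 with all cells left out that held any other thymocyte UMI.

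Outside the cell cycle lists, the 10 genes with the highest ratios in cycling TECs were again proliferation genes, from Pbk, a mitotic kinase, to Stmn1, which destabilises microtubules. Pclaf, a PCNA-binding protein, was at 514 (473 to 558) and 519 (481 to 559) CPM against 1.71 and 3.39. Among them were 4 histone genes, such as the linker histone Hist1h1b at 398 and 353 against 8.63 and 9.12. Histone genes form families of near-identical copies, and their counts are uncertain. The 10 with the lowest ratios were, next to Bpifa1, Ccl25, Reg3g and Cldn4, the genes Cyp2f2, Ces1d, Plac8, Serpinb11, Cst6 and Pigr. All of these but Bpifa1 were under the level limit set for named genes in cycling TECs of both pools. They passed that limit only through non-cycling TECs, so their direction follows from it. Likewise, all genes with the highest ratios but Stmn1 passed it only through cycling TECs. Cyp2f2, a cytochrome of airway secretory cells, was at 8.95 and 3.01 against 237 and 152, and Pigr, the receptor that carries immunoglobulin across epithelia, at 35.8 and 21.0 against 350.3 and 176. A single cell held 90% of the Cyp2f2 UMIs in ORFTOC cycling TECs, and 90 and 100% of those of Pigr in ORFTOC and FTOC.

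Counts of cells with a UMI at full depth are given for the subtype genes, without reading absence of a UMI as absence of expression. Of the 51 ORFTOC cells, 38 held a Ccl21a UMI, 44 Krt5, 47 Krt14 and 27 Prss16. Of the 67 FTOC cells, 37 held Ccl21a, 41 Krt5, 38 Krt14 and 47 Prss16. Prss16 and Ccl21a, of cortex and medulla, were found together in 20 ORFTOC and 30 FTOC cells, but with 3 or more UMIs of each in 3 and 13. Krt5 and Krt14 were together at 3 or more UMIs in 33 ORFTOC and 15 FTOC cells. Aqp3 was held by 20 and 39 cells. Among cycling thymocytes of ORFTOC the shares with a UMI were 1.44% for Ccl21a, 3.71% for Krt5, 0.825% for Krt14, 2.27% for Prss16 and 2.47% for Aqp3, and in FTOC 0.581, 3.20, 0.872, 2.33 and 3.20%.

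Most genes of cycling TECs differed less than 2-fold between the pools. Of 6457 genes with a mean of at least 20 CPM, 119 (1.84%) were at least 2-fold higher in ORFTOC and 90 (1.39%) at least 2-fold lower. Early mTEC genes made up 4 of the higher ones of 10 tested: Krt5, Krt14, Krt15 and Cldn4. For Cldn4 1 cell held 67.6% of the UMIs in ORFTOC and 1 held 64.7% in FTOC, and 5.88 and 6.25% of cells held a UMI after thinning. Of 7 cTEC genes 1 was higher, Tbata, and 3 were lower, Prss16, Cxcl12 and Kitl. Of 7 keratins 4 were higher, Krt5, Krt14, Krt15 and Krt7. No gene of the licensing, nucleotide, polymerase, chromosome, kinetochore, spindle or cyclin lists reached 2-fold. In every comparison of the pools the mean was taken over both pools. A gene under 20 CPM in either pool passed only through the other, so its direction follows from the limit. Cldn4 passed only through ORFTOC.

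Of the genes most in favour of ORFTOC, several rested on few cells. Fcgbp, Alox12e, Acta2, Ltb, Ly6d and Timp1 were under the limit of 50 CPM for named genes in FTOC. They passed it only through ORFTOC, so their direction follows from it. Fcgbp, a mucus-associated protein, was at 208 (182 to 236) CPM in ORFTOC and 18.0 (11.6 to 26.8) in FTOC, with 1 cell holding 43.1% of the ORFTOC UMIs. Alox12e, a lipoxygenase of stratified epithelium, was at 141 (119 to 164) and 21.0 (14.0 to 30.4). It was found at full depth in 68.6% and 11.9% of the cells. Krt5 had a log2 ratio of 2.36 (2.24 to 2.49) and Krt14 of 2.27 (2.09 to 2.45), against 0.95 and 1.19 among non-cycling TECs. Chosen after thinning to 5000 UMIs, the cycling TECs had ratios of 0.97 and 0.85, under 2-fold, and without the condition on immune genes 1.16 and 1.55. Serpinb1a, a protease inhibitor, was at 401 and 97.7. Acta2, smooth muscle actin, was at 119.9 and 18.0, Ltb, a lymphotoxin subunit, at 125 and 27.8, Ly6d at 97.6 and 23.3, and Timp1, a metalloproteinase inhibitor, at 87.7 and 23.3. A single cell held 36.7 to 58.2% of the ORFTOC UMIs of these 4 genes. In cycling thymocytes of ORFTOC and FTOC, Ltb was at 281 and 356 CPM and Ly6d at 380 and 436, above the cycling TECs. Whether their UMIs in cycling TECs came from thymocytes was not tested. Bpifa1, which the rule also named, rested on a single cell in each pool.

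In favour of FTOC, Cxcl12 stood first, with a log2 ratio of -2.94 (-3.47 to -2.46) against -1.03 among non-cycling TECs. At full depth a Cxcl12 UMI was held by 27.5% of ORFTOC and 64.2% of FTOC cells, and after thinning by 11.8 and 54.7%. Prss16 had a ratio of -1.42 (-1.91 to -0.95), while among non-cycling TECs it was 1.71, the opposite direction. The Prss16 ratio in cycling TECs was 0.041 without the condition on immune genes. Tnfrsf18, the receptor GITR, was at 47.4 (35.5 to 62.0) CPM in ORFTOC and 123 (105 to 144) in FTOC, with 19.6 and 80.4 in non-cycling TECs. Bex2 was at 32.2 and 84.2, Enho, which encodes a secreted peptide, at 43.9 and 127, and Pla2g7, a lipid hydrolase, at 51.9 and 144. Mgll and Kcnn3 were at 79.7 and 85.7 CPM in FTOC against 31.3 and 34.0 in ORFTOC. Cited2 was at 76.6 CPM in FTOC, of which 1 cell held 49.0%, and at 27.7 in ORFTOC. In cycling thymocytes it was at 83.1 CPM in FTOC and 84.5 in ORFTOC, and in non-cycling TECs at 133 and 143.

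**Figure D5:**
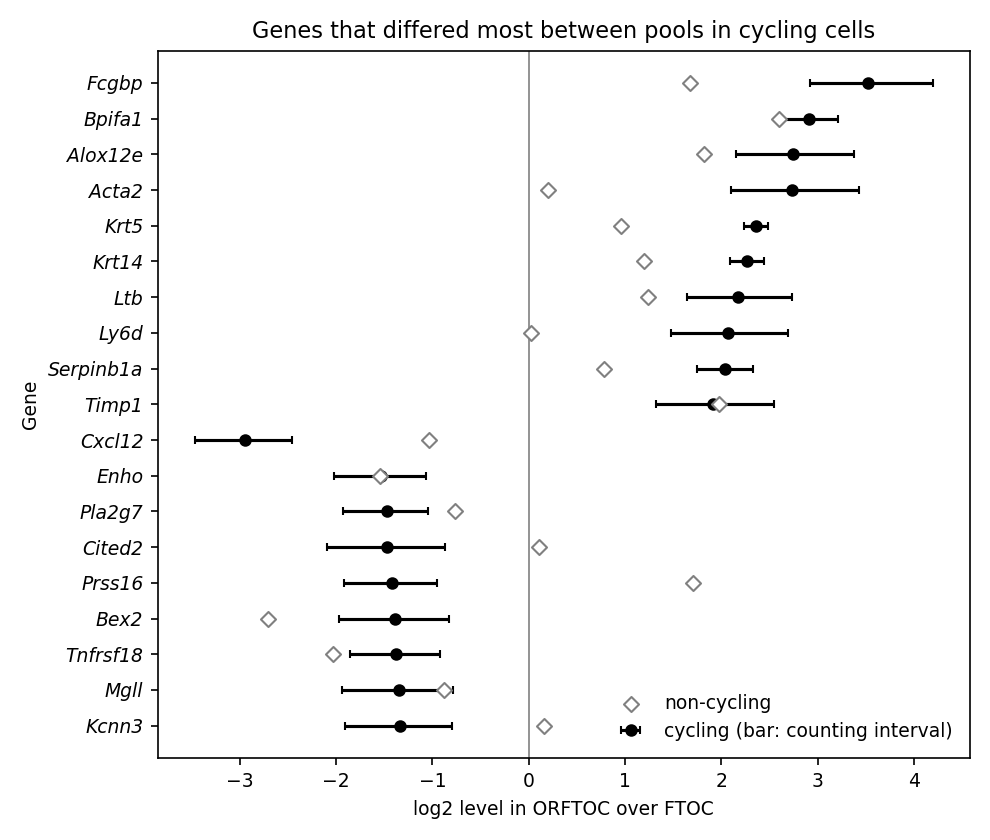
Log2 ratio of the level in ORFTOC over FTOC (x axis) for named genes most in favour of either pool in cycling epithelial cells (y axis). Black points with bars are cycling cells with 95% counting intervals and open diamonds are non-cycling cells. Krt5 and Krt14 lie to the right in both classes. Prss16, which passed the level limit for named genes only through FTOC, lies on opposite sides.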

How the data were processed

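The deposited files hold UMI counts per gene and barcode, hashtag counts and T cell receptor contigs, which the authors made from the reads of 1 droplet lane. Per the submitters' processing notes, Cell Ranger 6.1.2, Seurat 4.2.0 and the mm10 build were used. The header of the deposited matrix names Cell Ranger 4, so the version that made the counts is uncertain. The counts were not normalized, and no cell annotation was used.

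Barcodes were kept with at least 600 genes, 0.4 to 10% mitochondrial UMIs and at least 80% of at least 10 hashtag UMIs in 1 row. Rows that share a symbol were summed. The members and gene lists were chosen with earlier results of these data known. Counts were summed by pool and class and divided by all UMIs of those cells (CPM). Counts under 3 were set to 3 for ratios. Genes with a mean of at least 20 CPM were tested for the call, which required 2-fold, in both pools for cycling against non-cycling TECs. Named genes were, per direction and comparison, the 10 largest ratios outside the cycle lists among genes with a mean of at least 50 CPM, found in at least 10% of cells. Some genes that this rule or the lists take are not reported here. Of each list, 2 to 6 genes were to be named, those with the highest CPM in cycling TECs first. Listed genes named outside that order, such as Psmb11, Gnat3, Cdkn1c, Cdkn2c, Nek2, Ung, Atf3 and Stag2, were chosen for their role or call after their values were seen. No replicates existed, so no p-value was computed. Doublets were not removed in the main selection, beyond the mixed hashtags and the condition on immune genes. Removal by doublet neighbours and Seurat's HTODemux (5.3.0) were alternatives. The script was tested on simulated data, where 168 of 200 genes changed 4-fold among 6694 were called for cycling against non-cycling TECs. Python 3.11.15, numpy 2.4.6, scipy 1.17.1, pandas 2.3.3 and R 4.3.3 were used. Promoters came from a RefSeq table (GRCm38.p6).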

Additional observations from a re-analysis of the deposited data

Results flagged for a closer look

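Krt5 differed in direction between the pools: its log2 ratio of cycling over non-cycling TECs was 0.50 in ORFTOC and -0.91 in FTOC. The difference was not tested, since each pool was 1 sample. Over the alternatives the ORFTOC ratio lay between -0.36 and 0.55, and it was below 0 when cells were thinned to 5000 UMIs. The FTOC ratio lay between -1.68 and -0.25.

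Outside the assigned cells, 8 barcodes with both hashtags met every other limit for a cycling TEC, and they entered no comparison.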

How the results depend on the processing

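No paired analysis was possible because each pool was 1 sample with no replicate. Values below are in the order ORFTOC, then FTOC where both are given. With at least 10 UMIs of Mki67 and Top2a the cycling shares were 2.88% and 5.35%, and 136 genes were lower in ORFTOC (90 in the main comparison). Without the immune condition 199 cells were chosen, 55.3% of them from ORFTOC, the ORFTOC share was 6.84%, 186 genes were higher in ORFTOC (119 in the main comparison), and Prss16 between pools was 0.041 (log2). With no other thymocyte UMI or contig 59 cells remained, 33.9% of them from ORFTOC, the ORFTOC share was 2.71%, 198 genes were higher and 287 lower in ORFTOC, Utf1 in ORFTOC was -0.40 and Cdkn1a between pools -0.50. Thinned to 5000 UMIs, 57 cells were chosen (2.03% and 4.14%), 675 genes were higher and 472 lower in ORFTOC, and Aire in FTOC was -0.088. Thinned to 2000 UMIs, Prss16 was found in 0% of ORFTOC and Ccnd2 in 40.3% of FTOC cells. With a mean of per-cell CPM 166 genes were lower in ORFTOC. At a limit of 5 CPM, 664 and 592 genes were higher and lower in cycling TECs, and 484 and 495 between the pools. Without the 30 cells with at least 3 mesenchymal or thymocyte UMIs, an alternative chosen after seeing the data, 151 genes were lower in ORFTOC, Aire, Utf1 and Fezf2 in FTOC were -0.28, -0.017 and -1.13, and Cdkn1a between pools was -0.26. The cause was not tested in any of these. Of the values for the main results under these alternatives, 99 stayed within the limits set for a change and 25 did not. Of those for single genes and other values, 472 stayed, 153 moved and 7 changed direction. The few cycling cells and single library limit all values.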
